A study of Mus musculus with 34 samples.

Results

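The genes that encode cohesin and its regulators were examined in mouse bone marrow-derived dendritic cells (BMDCs) with and without CTCF. They are 9 of 21938 protein-coding genes and were chosen by name: Ctcf, the cohesin subunit genes Rad21, Smc3 and Stag1, the loader genes Nipbl and Mau2, and the release and regulator genes Wapl, Pds5a and Pds5b. They lie on 6 autosomes. Bone marrow of C57BL/6 mice, labelled as 8 weeks old, was cultured with GM-CSF, the cytokine that drives dendritic cell differentiation, for 6 days. All cells carried CreER, a tamoxifen-inducible Cre recombinase driven from the Rosa26 locus, and the CTCF-KO cells also carried loxP-flanked Ctcf alleles (CreER;CTCF fl/fl). Tamoxifen (4-OH tamoxifen) was present on the first day of culture, and the control genotype (CreER) has no loxP-flanked Ctcf. Cells were untreated (WT, KO) or stimulated with 100 ng/ml LPS, a bacterial ligand of TLR4, for 3 h (WTLPS, KOLPS). Peak lists were used for CTCF, the cohesin subunit SMC1, H3K4me3, H3K27ac, H3K4me1, H3K27me3 and the NF-κB subunit p65 in all 4 conditions, and for STAT5 in WT and KO after 15 min of renewed GM-CSF. These are 30 lists, 1 for each antibody and condition, so no difference between conditions has a replicate check and none was tested.

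Cohesin is a ring of SMC1, SMC3 and RAD21 with a STAG1 or STAG2 arm that holds DNA and extrudes loops. NIPBL and MAU2 load the ring and drive extrusion, WAPL opens it, and PDS5A and PDS5B bind it and help in both its release and its stabilisation. CTCF binds an asymmetric DNA motif and stops extruding cohesin, so that CTCF and cohesin peaks often coincide. H3K4me3 marks active promoters, H3K27ac active promoters and enhancers, H3K4me1 enhancers and the flanks of promoters, and H3K27me3 Polycomb-repressed chromatin.

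The promoter window spanned 2.5 kb before and after the start site of each gene (that of its longest transcript), and a gene body ran over the annotated gene (GENCODE, GRCm38). Each peak has a fold, the ratio of fragments at its summit to the local background after a single fragment is added to each. The fold is therefore lower than the plain ratio, most so where the background is low. Its rank is the share of its own list's peaks with a lower −log10 p, so a rank of 90% means that 90% of the peaks in that list were weaker. The lists held 504 to 96475 peaks. The recovered background was 2.82 to 3.74 fragments per base in the CTCF libraries and 4.50 to 5.76 in the SMC1 libraries. At that background a CTCF peak needed 17, 17, 15 and 15 fragments in WT, WTLPS, KO and KOLPS, which is a fold of 3.80 to 4.19, and an SMC1 peak needed 19 to 22 fragments, a fold of 3.4 to 3.64. A gene without a peak may therefore still carry signal below these values. Dendritic and myeloid markers checked the cell type: 11 of 12 had an H3K4me3 promoter peak in every condition, with H2-Ab1 at none. None of 3 T cell markers had one, and neither did Gata1, Hba-a1, Cd79a, Ly6g, Elane, Mpo, Alb, Myod1 or Krt5. All 3 macrophage markers did, as did Pax5, S100a8, Klf1, Neurod1 and Col1a1.

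Of 65 separate CTCF sites at these genes, counted after merging overlapping CTCF peaks of the 4 conditions, 8 held a match to the core of the CTCF motif near the summit. Their sequences are shown because these sites include the strongest CTCF peaks of the genes in WT. Capitals mark the motif match, 15 reference bases are given on either side, and each is written 5′ to 3′ on the strand that holds the motif. The match lies at the Smc3 promoter, at the Pds5b start and in introns of Stag1, Nipbl and Pds5b. An 8th match, without mismatch, lies 0.2 kb after the Stag1 start in a UTR exon and is not printed.
Smc3, promoter, chr19:53599894-53599937, + strand: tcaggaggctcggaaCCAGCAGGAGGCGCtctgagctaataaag
Pds5b, start, chr5:150673678-150673721, + strand: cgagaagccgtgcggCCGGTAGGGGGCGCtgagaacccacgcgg
Stag1, intron, chr9:100910528-100910571, − strand: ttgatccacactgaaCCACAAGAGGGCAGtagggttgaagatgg
Stag1, intron, chr9:100917291-100917334, − strand: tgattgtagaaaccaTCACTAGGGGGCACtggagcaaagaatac
Nipbl, intron, chr15:8382377-8382420, + strand: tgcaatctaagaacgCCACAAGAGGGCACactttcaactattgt
Pds5b, intron, chr5:150702874-150702917, − strand: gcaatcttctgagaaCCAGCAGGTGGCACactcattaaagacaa
Pds5b, intron, chr5:150717995-150718038, − strand: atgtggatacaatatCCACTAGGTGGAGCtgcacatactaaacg
The 3 promoter matches run on the same strand as their gene. All 5 intron matches run on the opposite strand.

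The promoters were compared first. All 9 genes had an H3K4me3 peak at the promoter in all 4 conditions, as did 56.0% of protein-coding genes. The strongest H3K4me3 peaks of the genes had ranks of 76.8 to 98.0% (WT), 75.3 to 98.5% (WTLPS), 82.1 to 98.8% (KO) and 68.3 to 97.0% (KOLPS). Nipbl and Rad21 held the top places in WT and KO, and Pds5b was lowest in WT and KOLPS. Peaks of H3K4me3 covered the whole Nipbl promoter in every condition and 51.4 to 55.1% of the Pds5b promoter. Because all 9 genes carry the mark, the 12295 genes with an H3K4me3 promoter peak in all 4 conditions serve as the background for the other antibodies. An H3K4me1 promoter peak in all 4 conditions was found at all 9 genes and at 70.9% of the background genes.

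H3K27ac lay at 9, 8, 8 and 8 of the 9 promoters in WT, WTLPS, KO and KOLPS. For 8 genes it was present in all 4 conditions, as at 62.5% of the background genes. Mau2 had the strongest acetylation peak of the genes in WT, WTLPS and KO, with folds of 19.8, 19.1 and 20.6, and a fold of 14.4 in KOLPS. That window also holds the start of Sugp1, a splicing factor gene that runs the other way from 79 bp upstream. Pds5b was the exception, with 2 weak peaks in WT, of fold 4.14 and 5.06, and none in the other conditions. A peak in WT alone was found at 1.67% of the background genes. The coverage of the H3K27ac libraries was 1.17 and 1.20 fragments in WT and WTLPS and 0.748 and 0.801 in KO and KOLPS, and the part of this difference in the Pds5b result was not tested.

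No promoter of the 9 genes had a peak of H3K27me3, p65 or STAT5 in any condition. Among the background genes 28.1%, 6.38% and 7.14% had one. Over the gene bodies, H3K27me3 peaks lay at Stag1 alone, which had 12 (WT), 15 (WTLPS), 10 (KO) and 3 (KOLPS) of them. These spread over the first part of the annotated gene, 4.12 to 44.8 kb upstream of the start used here, apart from 1 WTLPS peak at +221 kb. The H3K27me3 lists themselves held 96475, 65880, 95080 and 26960 peaks, and the part of list size in the Stag1 count was not tested. STAT5 peaks were found in Stag1 in WT, within the H3K27me3 stretch, and 11.6 kb into Smc3 in KO, and were weak in both, with ranks of 23.6% and 1.99%. How often gene bodies hold an H3K27me3 or STAT5 peak over all genes was not computed.

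**Figure D1:**
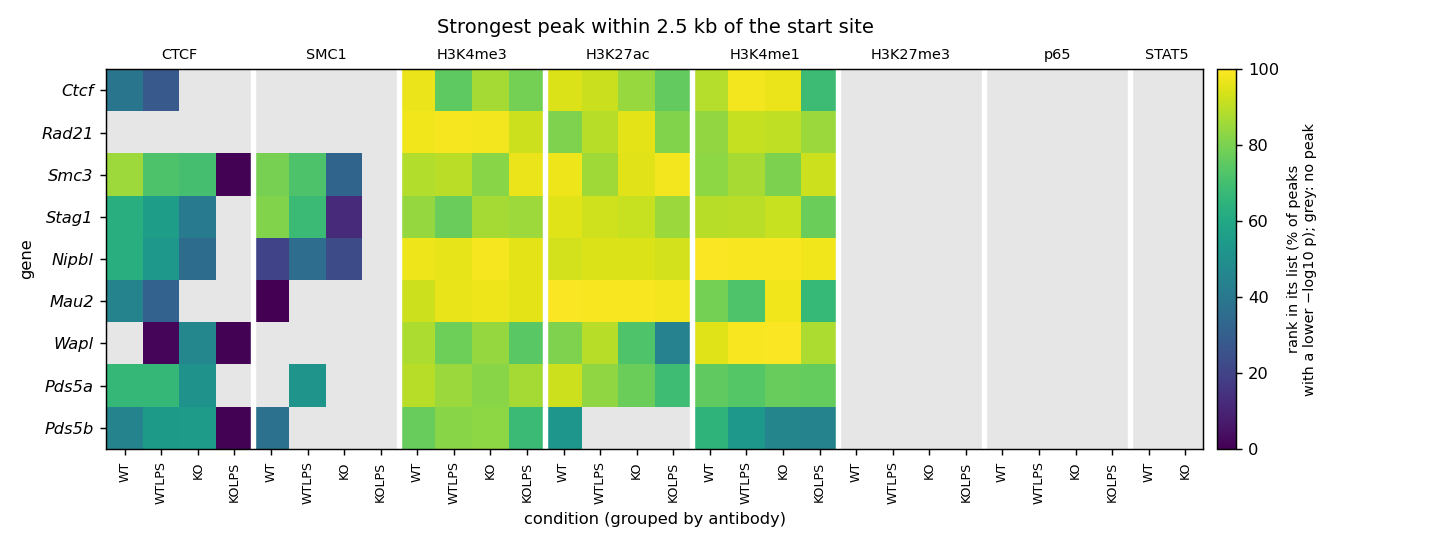
Rank of the strongest promoter peak (colour, % of the list's peaks with a lower −log10 p) for the 9 genes (rows) in the 30 lists (columns, grouped by antibody), with grey for no peak. H3K4me3, H3K27ac and H3K4me1 fill nearly every cell, while CTCF and SMC1 thin out from WT to KOLPS and H3K27me3, p65 and STAT5 are empty.

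CTCF lay at 7 promoters of WT cells, 8 in WTLPS, 6 in KO and 3 of KOLPS cells. Of the background genes 42.3%, 39.0%, 31.8% and 16.7% had a CTCF promoter peak in these conditions. Of the 7 genes with a CTCF promoter peak in WT, 2 had none in KO, Ctcf and Mau2, compared with 51.1% in the background. With LPS, 5 of 8 had none in KOLPS, compared with 67.9%. Smc3 and Pds5b had a CTCF promoter peak in every condition, as did 11.3% of background genes. The KOLPS peaks at all 3 promoters had a fold of 4.19, the lowest that could be called. At Pds5b the KOLPS peak lay at another place in the window than the WT peak. Wapl was the one gene of the 2 without a WT peak that had one in KO, a pattern held by 19.2% of background genes without a WT peak.

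SMC1 lay at 5, 4, 3 and 0 promoters in WT, WTLPS, KO and KOLPS, with 46.1%, 40.3%, 35.9% and 23.4% in the background. The Mau2 and Pds5b promoters, 2 of the 5 genes with a peak in WT, had none in KO (39.8% in the background), and all 4 genes with one in WTLPS had none in KOLPS (55.7%). Over promoters and gene bodies together the 9 genes had 45, 47, 24 and 8 CTCF peaks and 26, 23, 9 and 0 SMC1 peaks. In the same order, the size of the whole CTCF list was 60537, 54020, 20151 and 11576, and that of the SMC1 list 63638, 57354, 29965 and 17241. Gene bodies held 42, 42, 21 and 7 of the CTCF peaks and 22, 21, 8 and 0 of the SMC1 peaks.

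**Figure D2:**
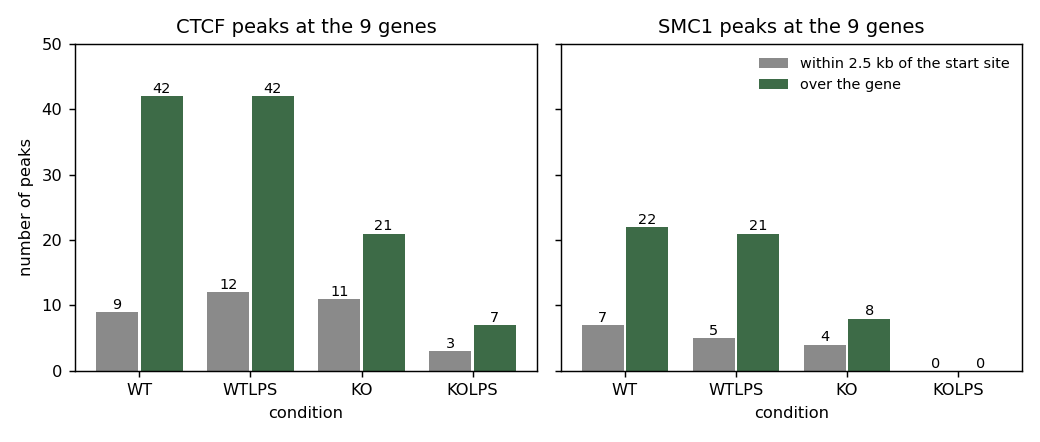
Number of CTCF peaks (left) and SMC1 peaks (right) at the 9 genes in each condition, at promoters (grey) and over gene bodies (green); a peak at the start of a gene counts in both. CTCF gene body peaks number 42 in both CTCF-WT conditions, 21 in KO and 7 in KOLPS, and SMC1 has none in KOLPS.

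The peaks of the conditions were then compared place by place. Of the 45 WT CTCF peaks, 11 were overlapped by a KO peak (24.4%, Wilson 95% interval 14.2 to 38.7%, counting error only), and 23.1% of WT peaks at all protein-coding genes were. Of the 47 WTLPS peaks 4 were overlapped in KOLPS (8.51%, background 16.1%). LPS in CTCF-WT cells left 35 of 45 peaks overlapped (77.8%, background 79.3%), and in CTCF-KO cells 7 of 24 (29.2%, background 44.7%). For SMC1, 3 of 26 WT peaks were overlapped in KO (11.5%, 4.00 to 29.0%), against 34.4% at all protein-coding genes, and 0 of 23 WTLPS peaks in KOLPS (0 to 14.3%), against 22.7%. With LPS, 16 of 26 WT peaks were overlapped in WTLPS (61.5%, background 73.7%) and 0 of 9 KO peaks in KOLPS (background 42.3%).

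WT CTCF peaks with a partner in KO held the motif in a larger share than those without, at the 9 genes and at all protein-coding genes; this was not tested. Among the 11 overlapped peaks 7 held the core motif (63.6%, 35.4 to 84.8%), and 1 of the 34 others did (2.94%, 0.521 to 14.9%). At all protein-coding genes the shares were 54.1% and 20.2%. The median WT fold was 16.0 for the 11 overlapped peaks and 5.59 for the 34 others, beside 19.4 and 5.65 at all protein-coding genes. An SMC1 peak lay on 8 of the 11 (72.7%) and on 8 of the 34 (23.5%) in WT, beside 89.0% and 44.2% at all protein-coding genes. None of the 10 CTCF sites found in CTCF-KO conditions alone held the motif or had an SMC1 peak in WT or KO. These 10 sites were weak, with folds of 4.05 to 5.57. The same shares for such sites over all protein-coding genes were not computed. Within 100 bp of all summits in the lists the motif was found in 29.6% (WT), 31.0% (WTLPS), 39.4% (KO) and 47.4% (KOLPS) of CTCF peaks, and in 1.05 to 1.11% of windows 1 kb away.

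**Figure D3:**
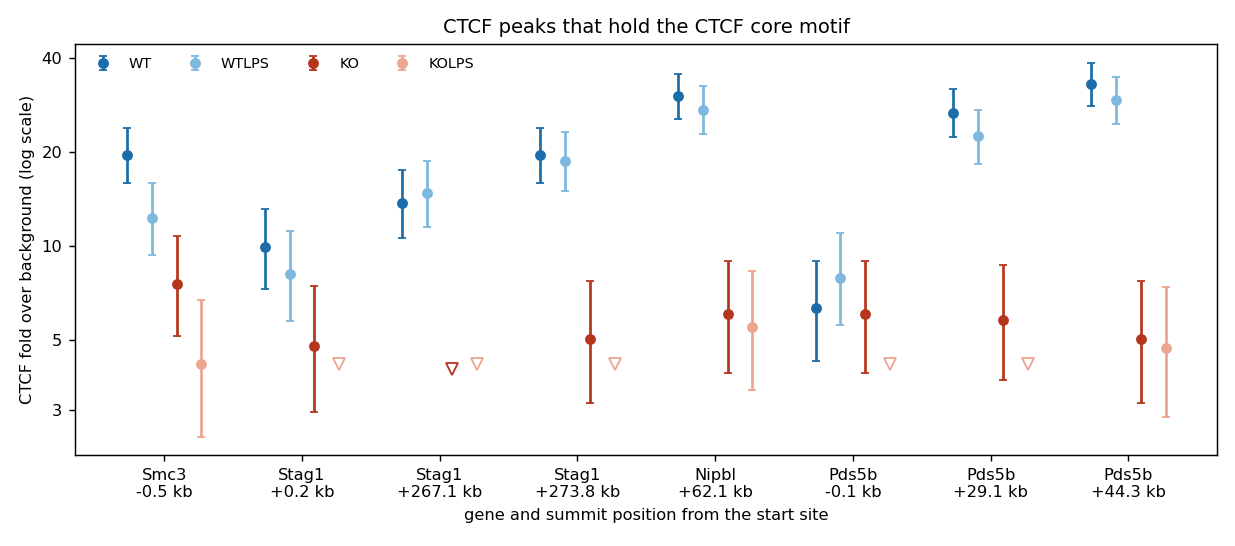
CTCF fold over background (log scale) at the 8 sites with the core motif, by condition, with 95% Poisson intervals of the fragment count; open triangles mark conditions without a peak, at the lowest fold that could be called. CTCF-WT folds lie between 6.33 and 33.1, and CTCF-KO folds at the sites still called lie between 4.19 and 7.60.

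Ctcf (chr8:105636568-105682922, + strand, 12 exons), the targeted gene, carried CTCF itself. A promoter CTCF peak lay 0.27 kb after the start, in intron 1, at 26 fragments in WT and 22 in WTLPS, folds of 5.70 and 5.07. The strongest CTCF peak of the gene lay in intron 2, at +24.8 kb, with 56 fragments (fold 10.4) in WT and 60 (fold 11.7) in WTLPS and no core motif at the summit. Neither KO nor KOLPS had any CTCF or SMC1 peak at the gene. A site in intron 10 near +41.5 kb was the one place with SMC1, in WT (fold 4.69) and WTLPS (fold 3.63).

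Exon 3 of Ctcf begins 27.2 kb after the start. From there to the end of the gene, peaks were found in CTCF-WT cells alone: CTCF and SMC1 in both conditions and 1 H3K27ac peak in WT, which is 5 peaks in all. The H3K27ac peak was weak, with 7 fragments (fold 3.68, rank 7.95%). In KO and KOLPS no peak of any antibody reached that far, and the furthest, of H3K4me1, ended at +25.1 kb. H3K4me1 and H3K4me3 peaks did not reach exon 3 in CTCF-WT cells either, and H3K4me1 ended at +23.8 kb in WT and +23.7 kb in WTLPS. The sources used here do not give which exons are flanked by loxP. Missing DNA, lost binding and shallower libraries cannot be told apart there. The promoter kept H3K4me3 in all conditions, with folds of 41.7, 28.8, 30.9 and 21.6 in WT, WTLPS, KO and KOLPS. Starts of Agrp, an appetite peptide gene, and Gm5914 lie 814 and 906 bp after the Ctcf start, and their promoter peaks cannot be told apart from those of Ctcf.

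**Figure D4:**
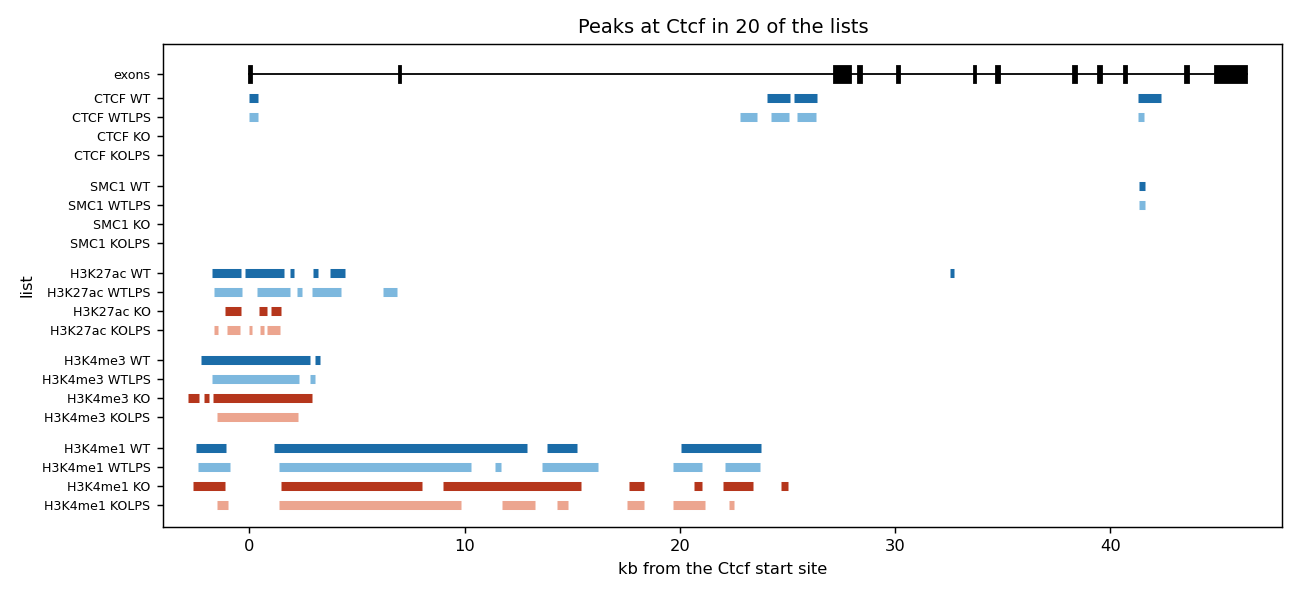
Peaks of 5 antibodies in the 4 conditions along Ctcf, as bars from peak start to peak end against distance from the start site in kb, with exons in black at the top. The bars past the start of exon 3 are all blue (CTCF-WT conditions), of CTCF, SMC1 and 1 of H3K27ac. Bars of H3K4me3 and H3K4me1 end before it in all 4 conditions, as do all red bars (CTCF-KO conditions).

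Rad21 (chr15:51962240-51991747, − strand) encodes the kleisin that closes the cohesin ring. It had no CTCF and no SMC1 peak in any condition, at the promoter or over its 29.5 kb, and 10.8% of the background genes were alike in this. Its promoter was among the strongest of the 9 for H3K4me3, with folds of 43.5, 44.6, 41.8 and 26.3 in WT, WTLPS, KO and KOLPS and ranks of 92.4% or more. H3K27ac there had folds of 6.90, 8.65, 13.7 and 7.22.

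Smc3 (chr19:53600398-53645833, + strand) encodes the SMC partner of SMC1. Its promoter held the strongest CTCF promoter peak of the 9 genes in WT, about 0.5 kb before the start, at the first sequence printed above. The summit had 92 fragments in WT (fold 19.6), 55 in WTLPS (fold 12.4), 29 in KO (fold 7.60) and 15 in KOLPS (fold 4.19). The WT interval of 15.9 to 24.0 lay above the KO interval of 5.17 to 10.8, for counting error alone. Ranks were 85.2%, 72.0%, 70.7% and 0.726%, each within its own list, and the KOLPS peak was among the weakest called. SMC1 lay at the same place with 57, 50 and 24 fragments in WT, WTLPS and KO (folds 9.06, 7.54 and 3.94) and was not called in KOLPS. Near the 3′ end, CTCF peaks at +37.9 kb (folds 15.0 and 13.2) and +43.7 kb (folds 12.5 and 10.8) were found in WT and WTLPS and in neither CTCF-KO condition. SMC1 at +37.9 kb had folds of 9.53 and 9.16. Further KO SMC1 peaks at +1.19, +35.0 and +40.2 kb had 22, 23 and 25 fragments. They were about as weak as the KO promoter SMC1 peak of 24 fragments.

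Stag1 (chr9:100597798-100959375, + strand) encodes an arm of the ring that contacts CTCF. It is the longest of the genes, at 362 kb, and has many annotated starts, of which the one at 100643448 was used. CTCF peaks flanked this start in WT, at −0.55 kb with 44 fragments (fold 9.5) and at +0.20 kb with 46 (fold 9.92). In WTLPS they had 19 and 36 fragments (folds 4.41 and 8.16), and in KO only the motif-holding peak was called, with 18 fragments (fold 4.81). SMC1 covered both with 60 fragments in WT (fold 9.53). Deep in the gene, sites at +267 and +274 kb had CTCF folds of 13.7 and 19.6 in WT and 14.8 and 18.8 in WTLPS. At +274 kb a peak of 19 fragments (fold 5.06) was left in KO and none in KOLPS, and at +267 kb neither had one. SMC1 followed at both sites in WT (folds 7.65 and 6.71) and WTLPS (6.36 and 6.65) and was not called there in KO or KOLPS.

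Nipbl (chr15:8290617-8444463, − strand) encodes the loader. Its strongest CTCF site lay in an intron 62.1 kb after the start, with 142 fragments in WT (fold 30.2), 123 in WTLPS (fold 27.4), 23 in KO (fold 6.08) and 20 in KOLPS (fold 5.50). The CTCF-WT intervals of 25.5 to 35.5 and 22.8 to 32.6 lay above the CTCF-KO intervals of 3.94 to 8.99 and 3.46 to 8.35. Its rank went from 96.4% and 97.0% in the CTCF-WT lists to 54.7% and 43.9% in the CTCF-KO lists. SMC1 at this site was the strongest of all 9 genes, with 129 fragments in WT (fold 20.3) and 109 in WTLPS (fold 16.3), and was not called in KO or KOLPS, where 21 and 19 fragments would have been enough at the usual background. A wide site at +38.1 kb without a core motif had 75, 63 and 20 fragments in WT, WTLPS and KO (folds 16.0, 14.1 and 5.32). The promoter peak 1.1 kb before the start had 46 fragments in WT, as a single wide peak that also spans −2.05 kb. Within that stretch WTLPS had separate peaks, of 32 fragments 1.1 kb before the start and of 34 at −2.05 kb. In KO weaker peaks lay at −1.38 and −2.75 kb, with 16 and 19 fragments. An SMC1 peak at +104 kb was shared by WT and KO, with 24 and 26 fragments and no CTCF peak.

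Mau2 (chr8:70016123-70042734, − strand) encodes the partner of NIPBL. It had a single CTCF site, 2.46 kb before the start, with 29 fragments in WT (fold 6.33) and 23 in WTLPS (fold 5.29) and no peak in KO or KOLPS. One SMC1 peak lay at the start in WT, with 21 fragments, the fewest that could be called. The gene body held no CTCF or SMC1 peak beyond the promoter window.

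**Figure D5:**
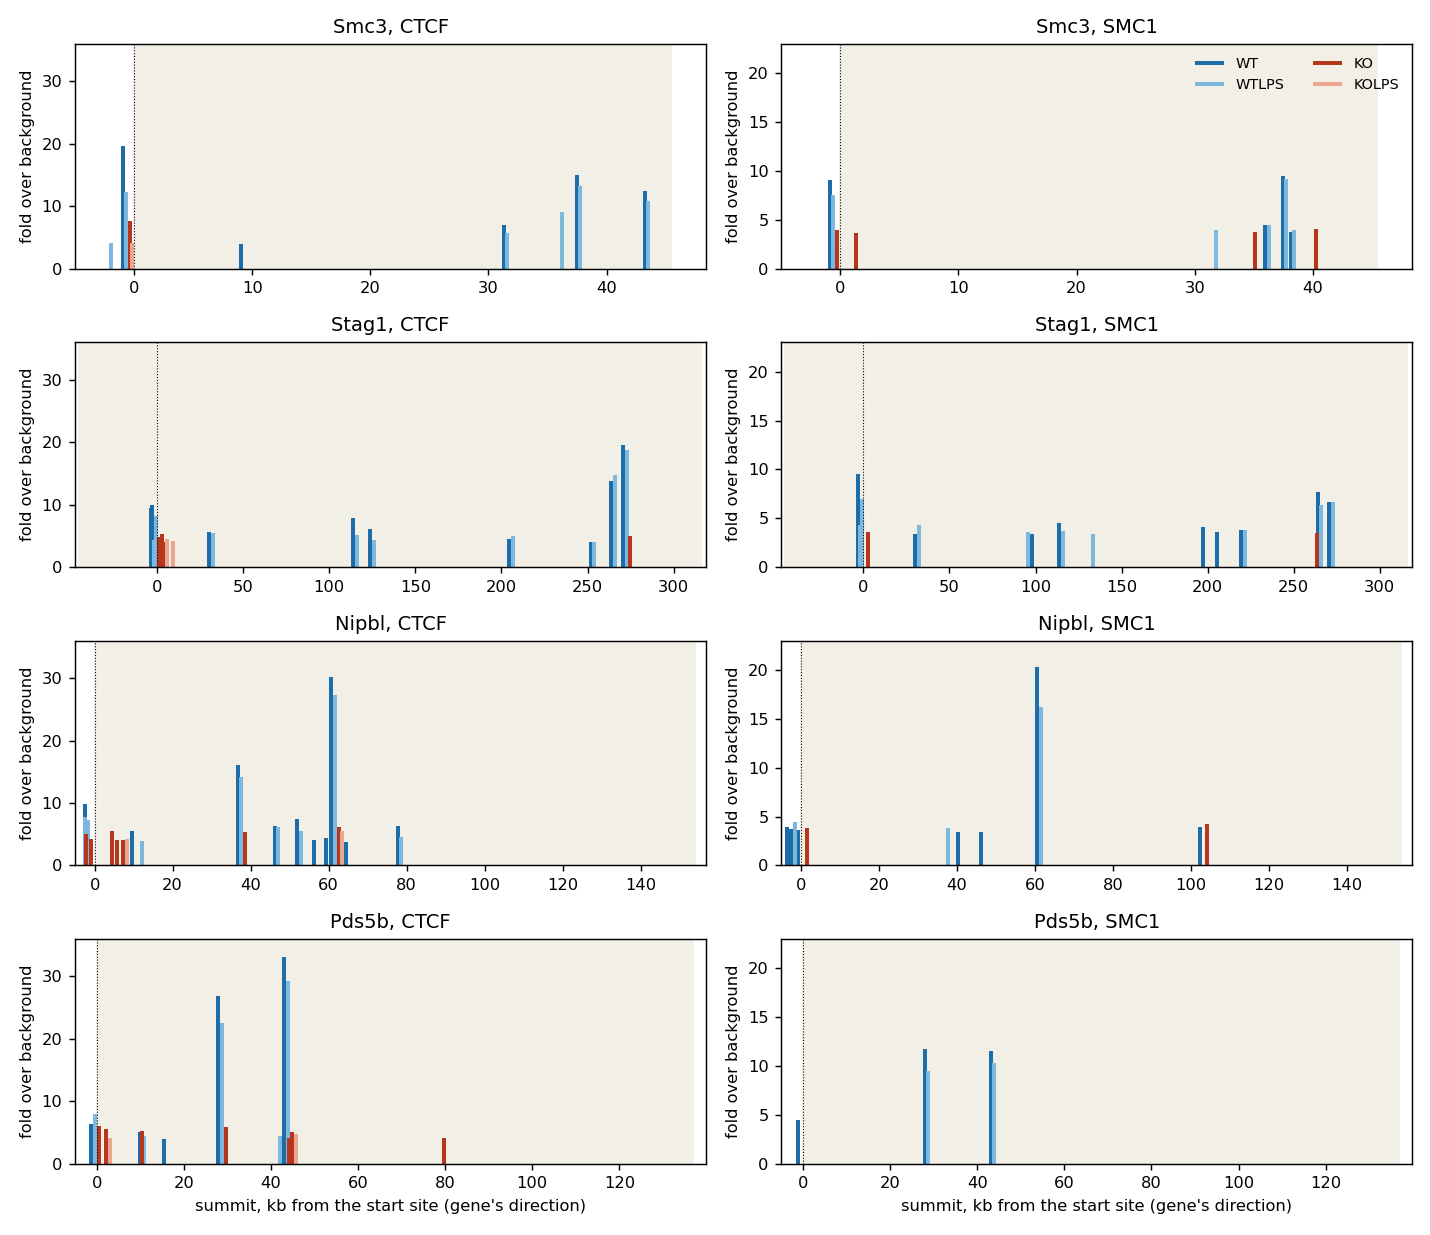
CTCF (left) and SMC1 (right) peaks along Smc3, Stag1, Nipbl and Pds5b, as lines at each summit (distance from the start site in kb, in the direction of the gene, with lines of the 4 conditions set slightly apart) whose height is the fold over background; shading marks the gene. The tallest lines, such as Nipbl near +62 kb and Pds5b near +29 and +44 kb, are blue for both antibodies, and red CTCF lines stay at or below a fold of 7.60.

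Wapl (chr14:34673928-34747983, + strand) encodes the factor that releases cohesin. No SMC1 peak was found in any condition. CTCF peaks over the gene numbered 6, 8, 2 and 1, and none held the core motif at its summit. The strongest in WT, at +6.42 kb, had 33 fragments there (fold 7.18), 30 in WTLPS (fold 6.84) and no peak in KO or KOLPS. Within the promoter window WT had no peak, and the others had 17 fragments at +1.33 kb (WTLPS), 21 at +1.39 kb and 16 at +2.80 kb (KO) and 15 at +1.67 kb (KOLPS).

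Such CTCF peaks shortly after the start, found in KO and not in WT, were also seen at Stag1, Nipbl and Pds5b. Stag1 had KO peaks of 20, 15 and 17 fragments at +1.56, +2.32 and +4.41 kb, Nipbl of 21, 15 and 15 at +3.94, +5.18 and +6.89 kb, and Pds5b of 21 at +1.70 kb. Pds5b also had KO peaks without a WT peak further in, 9892 bp (fold 5.32) and 79292 bp (fold 4.05) after the start. How often KO peaks lack a WT peak over all genes was not computed, beyond the promoter share of 19.2% given above. All of them were weak, with folds of 4.05 to 5.57, where a KO peak needed 15 fragments. At Stag1 the first of these places also had a CTCF peak in WTLPS, of 17 fragments, and an SMC1 peak of 22 fragments in KO, at +1.49 kb. H3K4me3 or H3K27ac peaks also lay over the Wapl places and over several of the others, and whether these marks play a part was not tested.

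Pds5a (chr5:65605721-65698273, − strand) and Pds5b (chr5:150673739-150810690, + strand) encode paralogous HEAT-repeat proteins that sit on the ring, and their CTCF peaks differed in place and strength. The Pds5a promoter peak at +1.27 kb, in a UTR exon, had 52 fragments in WT (fold 11.2), 48 in WTLPS (fold 10.8) and 22 in KO (fold 5.82, summit at +1.65 kb). SMC1 was called there in WTLPS alone, with 35 fragments (fold 5.32). In the body a site at +30.3 kb had 56 and 47 fragments in WT and WTLPS (folds 12.03 and 10.59), with SMC1 at 38 and 56 fragments, and neither was called in KO or KOLPS. No core motif lay at these Pds5a summits. At +42.1 kb weak CTCF peaks of 17 and 16 fragments were called in WT and KO, and SMC1 peaks of 22 fragments in WTLPS and KO.

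Pds5b held the strongest CTCF peak of all 9 genes. At +44.3 kb the summit had 156 fragments in WT (fold 33.1), 132 in WTLPS (fold 29.3), 19 in KO (fold 5.06) and 17 in KOLPS (fold 4.71). At +29.1 kb it had 126, 101 and 22 fragments (folds 26.8, 22.5 and 5.82) and no peak in KOLPS. SMC1 lay at +44.3 kb with folds of 11.6 in WT and 10.4 in WTLPS and at +29.1 kb with folds of 11.7 and 9.46, and at neither site in a CTCF-KO condition. The site at the start stood apart from these: it had 29 fragments in WT (fold 6.33), 35 in WTLPS (fold 7.94) and 23 in KO (fold 6.08), and the 3 intervals, 4.31 to 9.0, 5.60 to 11 and 3.94 to 8.99, overlapped. In KOLPS it was not called, and the promoter peak there lay at +1.85 kb. SMC1 at the Pds5b start was called in WT alone, with 28 fragments.

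Between the genes, the pattern of promoter ranks over the 30 lists was compared by Pearson correlation, as a description of lists that share cells and antibodies. Over the 36 pairs r ranged from 0.61 to 0.98, with a median of 0.89. The pairs Smc3 with Stag1 and Ctcf with Mau2 were highest, both at 0.98, and Rad21 with Pds5b was lowest. All 9 promoters share H3K4me3 and H3K4me1 peaks in every condition and the absence of H3K27me3, p65 and STAT5 peaks. Among all protein-coding genes the most similar to each member were Agrp (1.0) and Nfyb (0.992) for Ctcf, Senp6 (0.998) and Ccnt2 (0.997) for Rad21, Rpl11 (0.987) and Ndufb9 (0.982) for Smc3, and Baz2a (0.99) and Clasp2 (0.989) for Stag1. For Nipbl they were Prmt7 and Slc7a6os (both 0.992), for Mau2 Sugp1 (1.0) and Nbr1 (0.996), for Wapl Crebzf and Ythdc1 (both 0.992), for Pds5a Chd8 (0.981) and Cbx1 (0.976), and for Pds5b Mrps2 (0.95) and Ube2t (0.929). Agrp and Sugp1 share the promoter window of their partner. The presence of peaks in all 30 lists was the same as in 679 other genes for Rad21, in 5 for Pds5a and in no other gene for Pds5b.

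RefSeq promoter sequences (250 bases before to 50 after the start, GRCm38.p6) were matched for 7 genes, all but Rad21 and Nipbl. Their GC content ranged from 56.0% at Mau2 to 80.3% at Pds5a, with a median of 73.7%, beside 61.3% over 9595 promoters of background genes and 52.7% over all 32851. They held 21 to 55 CG steps, with a median of 41 beside 21 and 7. The Sp1-type box GGGCGG, searched on both strands, was found in 7 of 7, in 66.1% of background promoters and in 35.7% of all. CCAAT was found in 3 of 7 (38.5% and 37.4%), at Stag1, Wapl and Pds5b. TATAAA was found in 0 of 7 (6.49% and 13.6%) and CCGGAAG in 0 of 7 (18.9% and 8.86%). The sets were not picked alike. Each member was read at the entry nearest its start, and each background gene at its entry with the lowest coordinate.

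The wider pathway was counted from lists of 39 genes, which include 8 of the 9. Of these 39, 35 had an H3K4me3 promoter peak in all 4 conditions. The exceptions were the meiotic genes Rad21l and Smc1b and the CTCF paralog Ctcfl, with none in any condition, and the meiotic kleisin gene Rec8, with a peak in WT and KO and none in WTLPS or KOLPS. Among the 31 that are not members, CTCF lay at 16, 16, 12 and 10 promoters and SMC1 at 9, 10, 9 and 4 in WT, WTLPS, KO and KOLPS. The background shares were 42.3%, 39.0%, 31.8% and 16.7% for CTCF and 46.1%, 40.3%, 35.9% and 23.4% for SMC1. Of the 31, 27 had H3K4me3 in all 4 conditions, as all background genes did. The remaining core subunits are X-linked: Smc1a had no CTCF or SMC1 promoter peak, and Stag2 had both in WT and WTLPS and neither in KO or KOLPS. A CTCF promoter peak in WT and none in KO was also found at Ddx11, Espl1, Stag3, Ncaph, Ncapd3, Maz and Patz1. Ddx11 and Espl1 act in sister cohesion and its release, and Ncaph and Ncapd3 are condensin genes. Maz and Patz1 encode zinc finger proteins that act beside CTCF. With Stag2 these genes belong to the 16 non-members with a CTCF promoter peak in WT. Among background genes with such a peak, 51.1% had none in KO. Ncaph had a CTCF peak in KOLPS. Condensin and SMC5/6 genes had CTCF at 6, 7, 8 and 7 of 10 promoters, beside the same CTCF background shares. Smc5, Smc6 and Ncapg2 had a peak in KO and none in WT or WTLPS. Smc2 had none in WT and a peak in WTLPS, KO and KOLPS. With Smc2, these are all of the 10 genes without a WT peak. A peak in KO and none in WT was found at 19.2% of background genes without a WT peak. The partner factors had SMC1 at 4 of 6 promoters in each condition, beside the background shares of 46.1%, 40.3%, 35.9% and 23.4%. These were Maz, Zfp143 and Vezf1 throughout, with Patz1 in WT and Yy1 in the other conditions.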

How the data were processed

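ChIP-seq peaks were used from 30 of 34 samples, and 4 inputs have no list. Libraries were made by tagmentation, with paired-end reads. Trimmed reads were mapped by the authors (BWA, mm10), Picard took out duplicates, and MACS2 called peaks with input as control (0.7.12, 1.77 and 2.1.2 per the submitters' processing notes, which differ from the versions in the study's methods). The study's methods describe calling per biological replicate and its reporting summary merged replicates, so whether a list is pooled is unclear. The deposited fold is a ratio of pileup to local background with a single fragment added to each, and the authors also gave −log10 of the p-value and q-value. H3K4me1 and H3K27me3 lists are broad peaks with averaged values, and H3K4me1 peak names carry another antibody supplier than the labels. Lowest −log10 p values were near 7 for CTCF and SMC1 and 2.24 to 6.05 elsewhere.

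The genes and lists were chosen with earlier results of these data known. Genes came from GENCODE vM21, and all peak ends lay within GRCm38 chromosomes. Overlap meant at least 1 shared bp. Fragments at a summit were the whole number that gave back its fold and −log10 p under MACS2's Poisson formula, within 0.002, which held for at least 99.96% of narrow peaks below −log10 p 25. Background is the most frequent level and is not a read count. Intervals (Wilson for shares, Poisson for fragments) cover counting error only. The 14-base core motif of CTCF, from general knowledge, was searched on both strands within 100 bp of summits with at most 1 mismatch. Named were all members in every list, their 2 most similar genes, pathway genes without H3K4me3 in some condition or with a promoter CTCF peak in WT and none in KO, and each member's strongest peaks. Steps were tested on simulated data. Python 3.11.15, pandas 2.3.3 and scipy 1.17.1 were used.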

Additional observations from a re-analysis of the deposited data

Results flagged for a closer look

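Counts that went up with LPS in CTCF-WT cells and down in CTCF-KO cells were picked out. With 1 list per condition the difference between these changes was not tested. The number of promoters with a CTCF peak went from 7 to 8 in CTCF-WT cells and from 6 to 3 in CTCF-KO cells, so that the changes differ by 4. Promoter CTCF peaks went from 9 to 12 and from 11 to 3, a difference of 11, and all CTCF peaks at the genes from 45 to 47 and from 24 to 8, a difference of 18. The whole CTCF lists went from 60537 to 54020 and from 20151 to 11576 peaks. The background of the CTCF libraries fell with LPS in both genotypes, from 3.74 to 3.53 and from 2.95 to 2.82 fragments. H3K4me3 peaks went from 14 to 15 and from 14 to 12, a difference of 3, beside whole lists of 24135, 23314, 25460 and 20960 peaks (WT, WTLPS, then KO, KOLPS). H3K27me3 peaks, all at Stag1, went from 12 to 15 and from 10 to 3, a difference of 10, beside whole lists of 96475, 65880, 95080 and 26960 peaks. The rise of the CTCF promoter count in CTCF-WT cells came from Wapl alone. Its WTLPS peak had 17 fragments, the fewest that could be called. WT and WTLPS both had 7 such promoters with −log10 p of at least 10, 6 with a half-width of 1 kb and 8 with any annotated start. In the same order, KO and KOLPS had 6 and 0, 4 and 1, and 6 and 4.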

How the results depend on the processing

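No paired analysis was possible because each antibody and condition has a single list, and leaving out a replicate was likewise impossible. Of 152 values recomputed, 129 stayed within 1.5 times the count, or within the interval of the share, and 23 moved. With −log10 p of at least 10, CTCF promoters in KOLPS went from 3 to 0, SMC1 promoters from 5 to 3 in WT and from 3 to 0 in KO, CTCF gene body peaks to 24, 12 and 1 in WTLPS, KO and KOLPS, and SMC1 gene body peaks to 12, 12 and 1 in WT, WTLPS and KO. A promoter of 1 kb left CTCF at 1 promoter in KOLPS. Without the promoter window 13 CTCF and 5 SMC1 gene body peaks were left in KO, and thinning to the lowest coverage left an expected 5.22 of the 8 SMC1 gene body peaks there. With 50% coverage by 1 peak required, 6.67% of WT CTCF peaks were shared with KO and 2.13% of WTLPS peaks with KOLPS. Among peaks with −log10 p of at least 10, 96.9% of CTCF and 92.3% of SMC1 WT peaks were shared with WTLPS, and with both lists so filtered 7.14% of CTCF peaks of KO with KOLPS and 0% of SMC1 peaks of WT with KO. Without a mismatch the motif lay at 4.44%, 4.26%, 8.33% and 0% of the CTCF peaks, in the order WT, WTLPS, KO, KOLPS, in place of 17.8%, 17.0%, 20.8% and 25%. The cause of these moves was not tested. Any annotated start, the common threshold, summits in the gene, summits within 200 bp and the whole peak moved nothing beyond these bounds. With any annotated start the number of CTCF promoters was nevertheless 8 in both WT and WTLPS. Weak peaks near the lowest callable fold are the least certain values.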
